A study of Mus musculus with 8 samples.

Results

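The RAS, RAF, MEK and ERK genes Hras, Nras, Braf, Araf, Map2k1, Map2k2 and Mapk3 were described across 8 RNA-seq libraries of mouse jejunal crypts. These 7 genes were chosen by symbol from a table of 23951 genes, and all 7 passed the filter on low values that left 12084 genes for testing. All mice carried 1 activating allele, BRAF-V600E f/+, and Villin-CreER(T2), a recombinase that the Villin promoter drives in intestinal epithelium and that tamoxifen switches on. The libraries labelled CDX2KO_BRAF (2 libraries) came from mice that also had Cdx2 f/f, SMAD4KO_BRAF (3 libraries) from mice that also had Smad4 f/f, and BRAF (3 libraries) from mice with no further floxed gene. Tamoxifen was injected on 4 days in a row, and jejunum was taken 1 day later. The labels give no age and do not say whether each library is a separate animal. Libraries are called by the numbers of their columns, which start at 0.

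RAS proteins are small GTPases of the inner plasma membrane that growth factor receptors switch on through exchange factors. Active RAS recruits RAF kinases, RAF phosphorylates the MEK kinases, and MEK phosphorylates the ERK kinases, which act on cytoplasmic and nuclear substrates. BRAF with the V600E change signals without RAS, and in the gut epithelium the cascade is known for driving proliferation and for feeding back on its own regulators. The level of a kinase's mRNA does not measure its activity, and FPKM does not separate the activating Braf allele from the other allele.

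Promoter sequences are given for Map2k1, Hras and Map2k2, because Map2k1 and Hras had the closest patterns over the 8 libraries among the 7 genes while Map2k2, the other MEK gene, took another course. RefSeq (build GRCm38.p6) had a promoter for 6 of the 7 genes, all but Mapk3, each covering 250 bases before to 50 after the start. Capitals mark the GC box GGGCGG or its reverse complement, the site of SP-family factors.
Map2k1 promoter, chr9:64253556-64253855, minus strand: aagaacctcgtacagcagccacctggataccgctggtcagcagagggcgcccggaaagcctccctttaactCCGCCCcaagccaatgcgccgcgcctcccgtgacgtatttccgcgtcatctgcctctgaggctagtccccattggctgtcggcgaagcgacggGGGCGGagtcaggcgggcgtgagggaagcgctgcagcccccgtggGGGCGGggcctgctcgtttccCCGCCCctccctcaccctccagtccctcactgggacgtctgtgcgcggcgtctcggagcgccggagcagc
Hras promoter, chr7:141193955-141194254, minus strand: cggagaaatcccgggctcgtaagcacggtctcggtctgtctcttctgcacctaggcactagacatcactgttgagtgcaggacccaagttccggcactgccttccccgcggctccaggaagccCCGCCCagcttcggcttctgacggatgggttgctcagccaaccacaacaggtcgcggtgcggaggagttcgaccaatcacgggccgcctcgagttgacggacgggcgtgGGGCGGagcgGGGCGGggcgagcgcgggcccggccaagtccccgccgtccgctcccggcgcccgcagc
Map2k2 promoter, chr10:81105665-81105964, plus strand: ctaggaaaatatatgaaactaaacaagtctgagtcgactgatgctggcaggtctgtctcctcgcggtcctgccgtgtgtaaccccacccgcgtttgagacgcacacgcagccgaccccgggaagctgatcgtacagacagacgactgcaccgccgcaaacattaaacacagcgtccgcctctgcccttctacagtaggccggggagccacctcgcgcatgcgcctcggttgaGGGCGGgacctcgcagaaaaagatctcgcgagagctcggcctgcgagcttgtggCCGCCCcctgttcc
The GC box occurred 4 times in the Map2k1 promoter, 3 times in that of Hras and 2 times in that of Map2k2, and 35.7% of all 32851 RefSeq promoters of this length held it on either strand. The letters CCAAT, read on both strands, occurred 2 times in Map2k1, 1 time in Hras and 0 times in Map2k2, and 37.4% of all promoters held them. The cAMP response element TGACGTCA occurred 2 times in the Braf promoter (chr6:39725414-39725713, minus strand) and in none of the other 5, and 1.79% of all promoters held it. The SMAD palindrome GTCTAGAC and the AP-1 site TGANTCA, where N is any base, were not found in these 6 windows, and 0.213% and 7.81% of all promoters held them. A match of letters is a description of the window and not a binding site.

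The values are FPKM, which scale fragment counts by transcript length and library size and so allow levels to be compared between genes of different length. Each library's FPKM summed to between 431269 and 595547. The files give no read counts. Against BRAF library 0, only 1.78 to 8.16% of low genes in the other libraries shared the commonest step, so whole reads were not recovered and depth is unknown. Smad4 was lower in SMAD4KO_BRAF, at 7.66 to 10.7 FPKM, than in BRAF, at 42.4 to 47.0 FPKM. Cdx2 went against its label, at 155 and 121 FPKM in the libraries labelled CDX2KO_BRAF and 64.2 to 82.6 FPKM in BRAF, and whole-gene FPKM does not test the floxed part, so directions for these 2 libraries hold for libraries of that label. All 7 epithelial markers were detected in the libraries, with Epcam among them, while 0 of 5 endothelial markers reached 1 FPKM. The 12 T cell and intraepithelial lymphocyte markers summed to 16.8 and 74.6 FPKM in the labelled libraries, 56.1 to 515 in SMAD4KO_BRAF and 37.3 to 1070 in BRAF, where BRAF library 1 was highest. The sum of 11 mesenchymal markers followed the same order of libraries within each group, from 4.6 to 85.0 FPKM. In bulk samples, fewer cells of a type and less RNA per cell cannot be told apart.

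Braf itself was the lowest of the genes. Its level was 3.66 and 4.14 FPKM in the libraries labelled CDX2KO_BRAF, 4.35, 4.88 and 4.11 FPKM in SMAD4KO_BRAF and 4.38, 4.47 and 3.85 FPKM in BRAF. The groups overlapped, and 23.1% of the tested genes had a lower mean than Braf. Araf, which encodes a RAF kinase of weak catalytic activity and lies on the X chromosome, was more abundant, with 36.3 and 40.9 FPKM in the labelled libraries, 44.7, 39.6 and 43.6 FPKM in SMAD4KO_BRAF and 38.3, 40.7 and 40.0 FPKM in BRAF. The ratio of Braf to Araf was 0.101 in both labelled libraries, 0.0942 to 0.123 in SMAD4KO_BRAF and 0.0963 to 0.115 in BRAF. Y-linked genes marked SMAD4KO_BRAF library 0 and BRAF library 0 as male, and Araf was the highest of its group in the SMAD4KO_BRAF one and the lowest of its group in the BRAF one. In every library the transcripts of Araf exceeded those of Braf.

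Mapk3, which encodes ERK1, was the most abundant of the 7 genes in every library. Its level was 193 and 213 FPKM in the libraries labelled CDX2KO_BRAF, 141, 139 and 152 FPKM in SMAD4KO_BRAF and 170, 168 and 170 FPKM in BRAF. All 3 groups stood apart from each other, with the labelled libraries highest and SMAD4KO_BRAF lowest.

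Map2k1, which encodes MEK1, was at 74.3 and 80.1 FPKM in the libraries labelled CDX2KO_BRAF, 56.1, 44.4 and 40.2 FPKM in SMAD4KO_BRAF and 84.1, 56.9 and 69.9 FPKM in BRAF. Each SMAD4KO_BRAF library lay below each library of the other groups, by a narrow margin between SMAD4KO_BRAF library 0 and BRAF library 1. Map2k2, which encodes MEK2, was at 78.5 and 79.5 FPKM in the labelled libraries, 95.1, 67.9 and 77.2 FPKM in SMAD4KO_BRAF and 104, 85.0 and 102 FPKM in BRAF. Here the labelled libraries were both below all BRAF libraries and inside the range of SMAD4KO_BRAF.

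Of the RAS genes, Hras was at 34.7 and 35.6 FPKM in the libraries labelled CDX2KO_BRAF, 25.1, 27.6 and 21.4 FPKM in SMAD4KO_BRAF and 34.8, 23.7 and 33.2 FPKM in BRAF. BRAF library 1 held the low BRAF value, inside the range of SMAD4KO_BRAF, so these groups overlapped. Nras was at 28.0 and 30.0 FPKM in the labelled libraries, 20.9, 24.1 and 21.6 FPKM in SMAD4KO_BRAF and 25.1, 21.2 and 20.6 FPKM in BRAF, with the labelled libraries above all others.

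**Figure D1:**
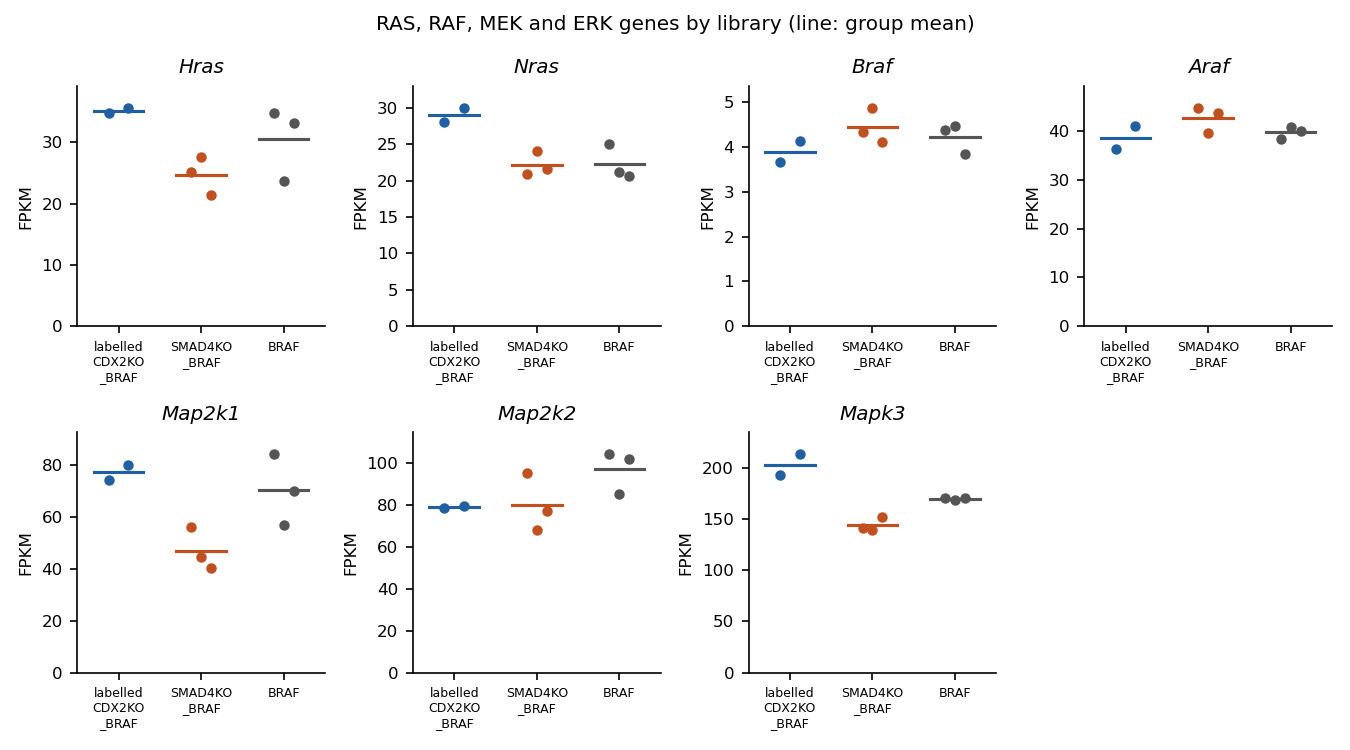
FPKM (vertical axes) of the 7 genes, each point being a library and each line the mean of a group. Mapk3 stands at 193 and 213 in the libraries labelled CDX2KO_BRAF, 139 to 152 in SMAD4KO_BRAF and 168 to 170 in BRAF, while Braf stays between 3.66 and 4.88.

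By mean FPKM, the order of the levels was Mapk3, Map2k2, Map2k1, Araf, Hras, Nras and Braf in SMAD4KO_BRAF and in BRAF, and also in the labelled libraries. Mapk3 and Braf stood apart from their neighbours in each group. In the labelled libraries Map2k2 and Map2k1 overlapped (78.5 to 79.5 and 74.3 to 80.1 FPKM). In SMAD4KO_BRAF Map2k1 overlapped with Araf (40.2 to 56.1 and 39.6 to 44.7 FPKM) and Hras with Nras (21.4 to 27.6 and 20.9 to 24.1 FPKM). In BRAF, Hras and Nras overlapped (23.7 to 34.8 and 20.6 to 25.1 FPKM), whereas Map2k1 stayed above Araf. Within BRAF the coefficient of variation was 0.768% for Mapk3 and 3.15% for Araf, against 19.6% for Hras and 19.3% for Map2k1.

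The libraries labelled CDX2KO_BRAF were compared directly with SMAD4KO_BRAF, which sets the 2 groups that carry a second floxed gene beside each other. Mapk3 rose, to 203 ± 13.9 FPKM (SD, n = 2) in the labelled libraries against 144 ± 6.80 FPKM (n = 3) in SMAD4KO_BRAF. The difference of log2(FPKM + 1) was 0.49 ± 0.11 (standard error, limma, adjusted p = 0.0347 over 12084 genes). Mapk3 was the 1 gene of the 7 that passed, against 6.60% of all genes called higher and 5.01% lower (11.6% in all). Map2k1 had 77.2 ± 4.14 FPKM in the labelled libraries and 46.9 ± 8.22 FPKM in SMAD4KO_BRAF, the largest difference of the 7 (0.72 ± 0.20), and missed the threshold (limma, adjusted p = 0.0593).

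The call of Mapk3 held in 7 and ended in 11 of 18 alternative fits, with adjusted p between 0.0226 and 0.242 over all of them in limma. It ended after quantile normalization, which brought the difference to 0.32 (0.242), and in a fit of both groups alone (0.0903). It ended with a block for the column number (0.0851) and in libraries of female mice (0.0818). It also ended without BRAF library 0 (0.055) or 2 (0.0674), SMAD4KO_BRAF library 0 (0.0664), 1 (0.082) or 2 (0.0794), or labelled library 0 (0.119) or 1 (0.201), although the difference stayed between 0.42 and 0.56. Map2k1 passed in 6 of 18, among them sex as a term (0.00979) and library weights (0.013), within 0.00979 to 0.233.

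The RAS genes and the second MEK gene did not pass in this comparison. Hras differed by 0.50 ± 0.18 (limma, adjusted p = 0.124) and Nras by 0.37 ± 0.12 (0.0923), both with every labelled library above every SMAD4KO_BRAF library. Map2k2 was at -0.0046 ± 0.17 (adjusted p = 0.989), with a 95% interval of -0.40 to 0.39. Braf (-0.15 ± 0.13, adjusted p = 0.482) and Araf (-0.14 ± 0.10, 0.418) overlapped between the groups. At an unadjusted p under 0.05, 4 of the 7 (Map2k1, Mapk3, Nras and Hras) were higher and 0 lower, against 15.7% and 13.3% of all genes (28.9% in all). In the same 4 genes every labelled library was higher, against 25.1% of all genes higher and 22.2% lower (47.3% in either direction). The median over the 7 was 0.375, against 0.0243 over all genes tested.

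The contrast of SMAD4KO_BRAF with BRAF addresses what changed in this cascade with the deletion of Smad4, which carries TGF-beta and BMP signals to the nucleus. None of the 7 genes passed in limma, against 0.0745% of all genes (0.0248% higher and 0.0497% lower). At an unadjusted p under 0.05, 1 gene was lower and 0 were higher, against 9.05% and 6.07% of all genes (15.1% in all). Map2k1 was at 46.9 ± 8.22 FPKM in SMAD4KO_BRAF and 70.3 ± 13.6 FPKM in BRAF (n = 3 each), a difference of -0.57 ± 0.18 (95% interval -0.99 to -0.15, limma, adjusted p = 0.262). It passed with library weights (0.0381, range over 18 alternatives 0.0381 to 0.612). Mapk3 was at 144 ± 6.80 FPKM in SMAD4KO_BRAF and 169 ± 1.30 FPKM in BRAF (-0.23 ± 0.10, adjusted p = 0.340), and after quantile normalization its difference was 0.018. Map2k1 and Mapk3 were the 2 genes in which every SMAD4KO_BRAF library was lower, against 10.4% of all genes, and in 0 of the 7 was every one higher, against 8.99% (19.3% in either direction).

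The other 5 genes were not called either. Hras (-0.29 ± 0.16, limma, adjusted p = 0.429) and Map2k2 (-0.28 ± 0.15, 0.400) had intervals of -0.67 to 0.10 and -0.63 to 0.067. Neither passed in any of the 18 alternatives. Hras ranged from -0.45, without BRAF library 1, to -0.18, and Map2k2 from -0.41, without SMAD4KO_BRAF library 0, to -0.079. Nras was at -0.0048 ± 0.11 (adjusted p = 0.990, interval -0.26 to 0.25), Araf at 0.10 ± 0.094 (0.608) and Braf at 0.057 ± 0.12 (0.833, interval -0.21 to 0.33). The median over the 7 was -0.232, against -0.0134 over all genes tested.

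The libraries labelled CDX2KO_BRAF were compared with BRAF in the same way, with the BRAF libraries shared with the comparison above. None of the 7 genes passed in limma, against 14.1% of all genes. Nras came closest, at 29.0 ± 1.43 FPKM (n = 2) in the labelled libraries and 22.3 ± 2.49 FPKM (n = 3) in BRAF, a difference of 0.37 ± 0.12 (95% interval 0.082 to 0.66, adjusted p = 0.0938). It passed with library weights (0.0274, range 0.0274 to 0.320) and was the 1 gene of the 7 with an unadjusted p under 0.05, and it was higher, against 14.6% of all genes higher and 14.2% lower (28.8% in all). Mapk3 was at 0.26 ± 0.11 (adjusted p = 0.182), Hras at 0.21 ± 0.18 (0.482) and Map2k1 at 0.15 ± 0.20 (0.652). Map2k2 was at -0.29 ± 0.17 (0.303), Braf at -0.095 ± 0.13 (0.662) and Araf at -0.040 ± 0.10 (0.827). Every labelled library was higher for Mapk3 and Nras, against 25.7% of all genes, and lower for Map2k2, against 22.7% (48.4% in either direction).

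**Figure D2:**
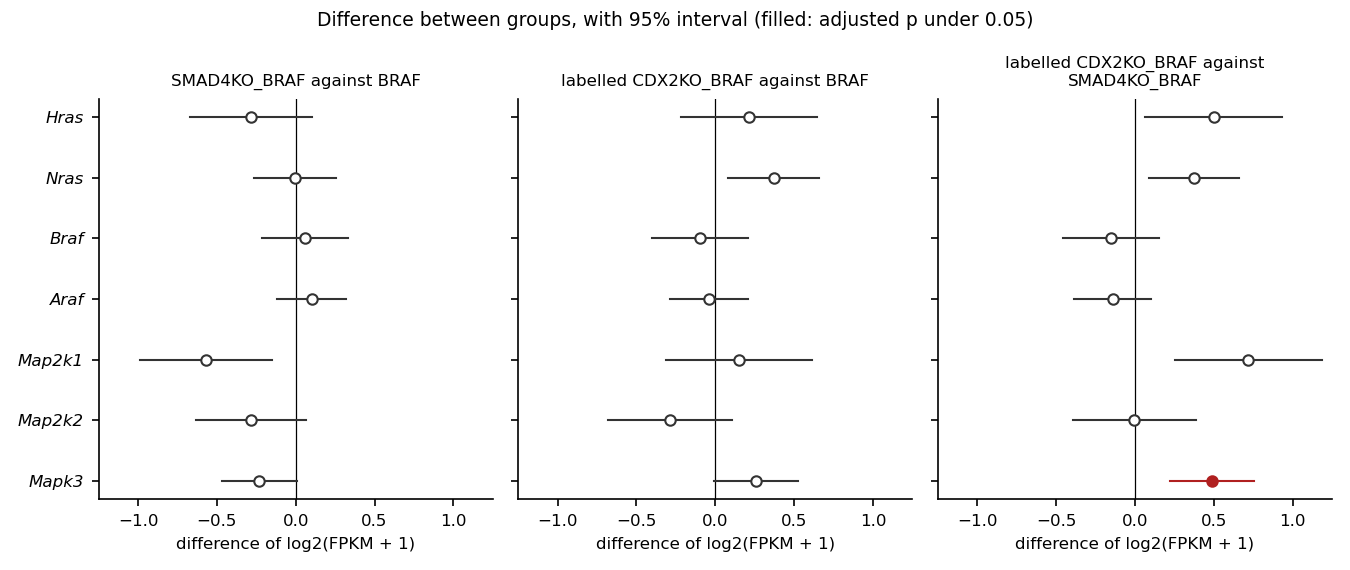
Difference of log2(FPKM + 1) between groups (horizontal axes) with its 95% interval for the 7 genes, in 3 comparisons, with a filled point where the adjusted p is under 0.05. Mapk3 at 0.49 between the libraries labelled CDX2KO_BRAF and SMAD4KO_BRAF is the 1 filled point, and Map2k1 has the largest values, at 0.72 there and -0.57 between SMAD4KO_BRAF and BRAF.

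A ratio of 2 genes within a library does not depend on a single scaling factor per library. The ratio of Map2k2 to Map2k1 FPKM was 1.06 and 0.992 in the libraries labelled CDX2KO_BRAF, 1.70, 1.53 and 1.92 in SMAD4KO_BRAF and 1.24, 1.49 and 1.46 in BRAF. The 3 groups did not overlap, so the labelled libraries had near equal levels of both MEK transcripts, while Map2k2 exceeded Map2k1 in all others. On the log2 scale the ratio differed by -0.74 between the labelled libraries and SMAD4KO_BRAF (exact two-sided permutation test, p = 0.2), by 0.29 between SMAD4KO_BRAF and BRAF (p = 0.1) and by -0.44 between the labelled libraries and BRAF (p = 0.2). These are the smallest p that 2 against 3 and 3 against 3 libraries allow, and adjusted over 12 such tests each was 0.6.

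The ratio of Hras to Nras was 1.24 and 1.18 in the labelled libraries, 1.2, 1.15 and 0.992 in SMAD4KO_BRAF and 1.38, 1.12 and 1.62 in BRAF, where the groups overlapped (exact permutation p = 0.3 to 0.6). The ratio of Braf to Araf, given above, also overlapped between the groups (exact permutation p = 0.6 to 1.0). No ratio passed when adjusted over the 12 tests, of which 9 are described.

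**Figure D3:**
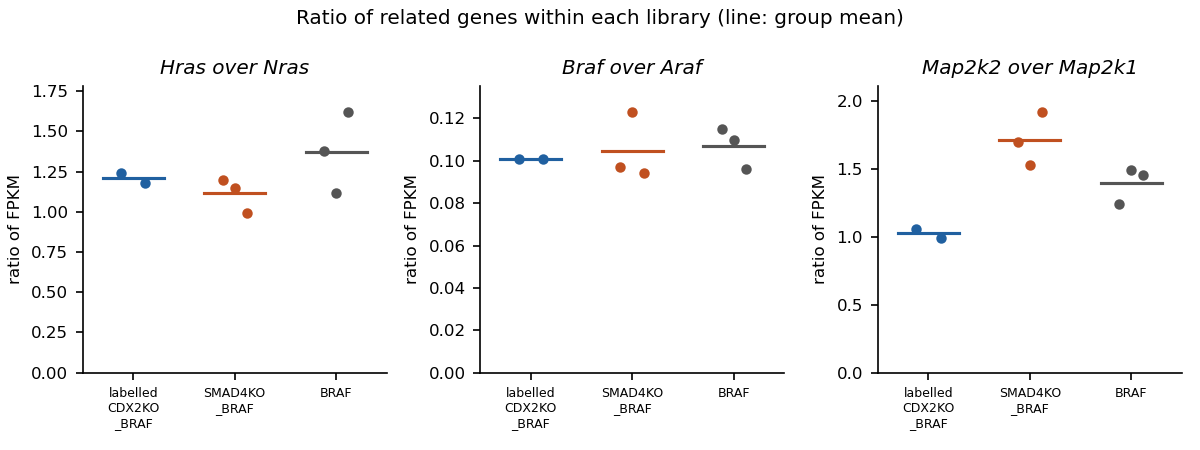
Ratio of the FPKM of related genes within each library (vertical axes), each point being a library and each line the mean of a group. The ratio of Map2k2 to Map2k1 is 0.992 to 1.06 in the libraries labelled CDX2KO_BRAF, 1.53 to 1.92 in SMAD4KO_BRAF and 1.24 to 1.49 in BRAF.

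The order of Map2k1 within groups matched that of the summed epithelial markers, but not that of each marker. The summed FPKM of 7 epithelial markers was, by library number, 6590 and 7990 in the labelled group, 6840, 5400 and 4740 in the SMAD4KO_BRAF group, and 8270, 5390 and 6640 in the BRAF group. In 7 of 7 pairs of libraries of the same group, the library with more epithelial marker RNA had more Map2k1. Taken singly, Krt8, Krt19 and Cdh1 matched Map2k1 in 7 of 7 pairs, Krt18 in 6, Vil1 in 5, Epcam in 4 and Cldn7 in 3. Hras and Map2k2 had the same order in 6 of 7 pairs, and Mapk3 and Nras in 4 of 7. The T cell sum had the same order as Map2k1 in 1 of 7 pairs. Total FPKM was 503028 and 505949 in the labelled libraries, 595547, 459090 and 431269 in SMAD4KO_BRAF and 585119, 463556 and 538620 in BRAF. Within each group this total also had the order of Map2k1. The male libraries, SMAD4KO_BRAF library 0 and BRAF library 0, were each highest of their group in Map2k1, the epithelial sum and total FPKM. Whether the order of Map2k1 is particular to epithelial markers, and the part of sex in it, was not tested. Between groups the epithelial sums overlapped. SMAD4KO_BRAF library 1 and BRAF library 1, with sums of 5400 and 5390, had 44.4 and 56.9 FPKM of Map2k1. Their T cell sums were 173 and 1070 FPKM and their mesenchymal sums 25.8 and 85.0 FPKM, so these libraries were not alike in other markers. The 8 mature enterocyte markers summed to 7360 and 3050 FPKM in the labelled libraries. The sum was 18500, 7640 and 5750 in SMAD4KO_BRAF and 25300, 9670 and 13900 in BRAF. This sum had the same order as Map2k1 in 6 of 7 pairs of libraries of the same group. The labelled libraries were the pair that differed. Labelled library 1 had the lowest enterocyte sum of all 8 libraries and a Map2k1 level exceeded only in BRAF library 0. In limma, 5 of these 8 markers were called lower in the labelled libraries than in BRAF, against 7.21% of all genes. Against SMAD4KO_BRAF 2 were called lower, Sis and Lct, where 5.01% of all genes were, and 2 of the 8 had a positive difference. Sis was at 3.71 and 2.85 FPKM in the labelled libraries, 96.9 to 320 in SMAD4KO_BRAF and 368 to 755 in BRAF. The 6 crypt base markers summed to 1780 and 697 FPKM in the labelled libraries, 6150, 4980 and 4280 in SMAD4KO_BRAF and 2480, 2920 and 3300 in BRAF, and these groups did not overlap. Lyz1, a Paneth cell gene, was most of this sum in SMAD4KO_BRAF, at 3560 to 5340 FPKM, and in BRAF, at 2070 to 2790 FPKM. In the labelled libraries it was at 891 and 259 FPKM, beside Mmp7 at 448 and 216 FPKM and Olfm4 at 409 and 204 FPKM. Unlike the sum, the stem cell genes Lgr5 and Ascl2 were higher in the labelled libraries than in BRAF (limma, adjusted p = 0.168 and 0.138). Lgr5 was at 2.44 to 3.03 FPKM against 1.26 to 2.35 FPKM and Ascl2 at 2.55 to 2.84 FPKM against 1.60 to 2.06 FPKM. Smoc2, of the same list, was lower than in BRAF, at 22.3 and 13.3 FPKM against 28.4 to 40.2 FPKM. Olfm4 and Mmp7 overlapped with BRAF. In all, 4 of the 6 markers had a positive difference against BRAF. Against SMAD4KO_BRAF 1 of the 6 did, and Lgr5, Smoc2 and Lyz1 were called lower in limma, where 5.01% of all genes were. The part of these marker levels in the differences of Map2k1, Mapk3 and the pathway genes was not tested.

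**Figure D4:**
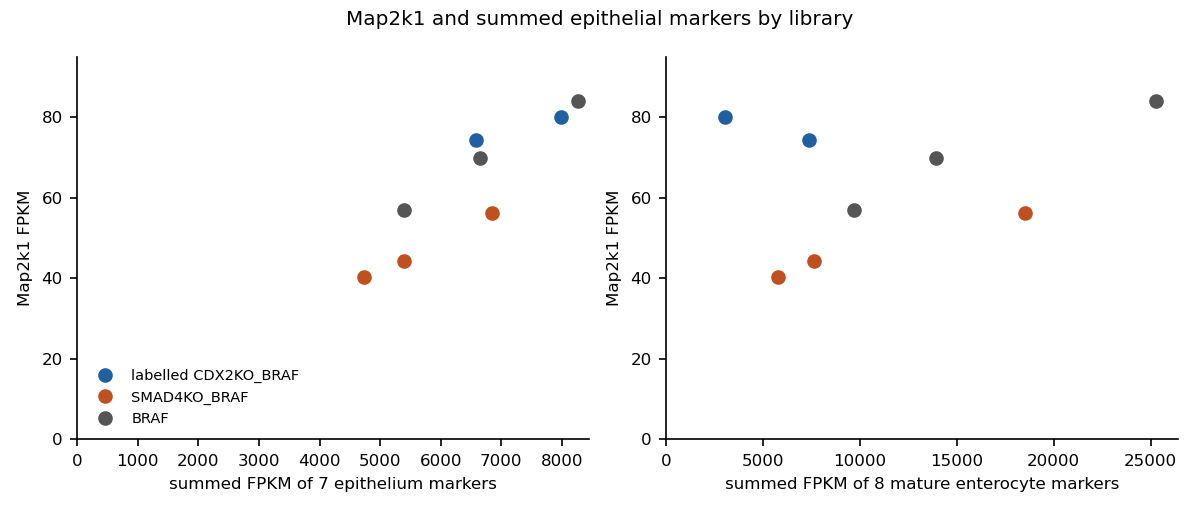
Map2k1 FPKM (vertical axes) against the summed FPKM of 7 epithelial markers (left) and 8 mature enterocyte markers (right), with 1 point per library. Within each group Map2k1 is ordered as the epithelial sum is. At sums of 5400 and 5390 SMAD4KO_BRAF library 1 and BRAF library 1 have 44.4 and 56.9 FPKM, but they also differ in T cell marker sums (173 and 1070 FPKM).

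Among themselves, the 7 genes formed no single pattern over the 8 libraries. Pearson's r of log2(FPKM + 1), a description over libraries that share their groups, was 0.879 between Map2k1 and Hras, 0.765 between Map2k1 and Mapk3, 0.723 between Mapk3 and Nras and 0.553 between Map2k1 and Map2k2. Braf and Araf ran against most of the others, at -0.600 between Braf and Mapk3 and -0.707 between Araf and Hras. Among 8431 tested genes with a mean of at least 5 FPKM and a named symbol (8432 for Braf), those most like Map2k1 were Copa, a coatomer subunit gene (r = 0.993, rank correlation 0.952), and Syap1 (0.992 and 0.952). Those most like Hras were the ceramide synthase gene Cers2 (0.982 and 0.976) and the mitofusin gene Mfn1 (0.980 and 0.952). Those most like Mapk3 were Ybx1, which encodes an RNA-binding Y-box protein (0.983 and 1.0), and Mb21d2 (0.978 and 0.905).

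Nras was most like Pea15a, which encodes an ERK-binding protein (r = 0.986, rank correlation 0.929), and Scarb1, which encodes a lipoprotein receptor (0.979 and 0.976). Map2k2 was most like Fbxl8 (0.991 and 0.976) and the nuclear receptor gene Esrra (0.988 and 0.976). Araf was most like Echdc2 (0.959 and 0.929) and the Wnt receptor gene Fzd5 (0.954 and 0.952), and Braf most like the bromodomain gene Brd9 (0.914 and 0.857) and Manbal (0.857 and 0.786). Each of these is a highest value chosen from all candidates, so none carries a test.

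The rest of the pathway was taken from 8 lists with 114 genes, of which 100 were tested. In SMAD4KO_BRAF against BRAF none of the 100 passed in limma, against 0.0745% of all genes, and 9 had an unadjusted p under 0.05, all lower, which is near the 9.05% of all genes that were lower in this way (6.07% higher). Between the libraries labelled CDX2KO_BRAF and BRAF 5 rose and 4 fell, to be read against 6.89% and 7.21% of all genes, and between the labelled libraries and SMAD4KO_BRAF 11 rose and 2 fell, against 6.60% and 5.01%. All 9 calls of the first and all 14 of the second comparison, Mapk3 included, ended when either labelled library was left out. Over all alternatives their adjusted p in limma was 0.00301 to 0.239 and 0.00473 to 0.242. Leaving out BRAF library 0, 1 or 2 ended 4, 6 and 8 of the 9 and 3, 1 and 4 of the 14, and leaving out SMAD4KO_BRAF library 0, 1 or 2 ended 1, 2 and 5 of the 9 and 4, 3 and 10 of the 14.

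Among other GTPases of the RAS family, 4 of 12 rose and 1 fell between the labelled libraries and SMAD4KO_BRAF, against 6.60% and 5.01% of all genes. The median of the 12 was 0.554, against 0.0243 over all genes tested. Rala had 34.7 and 34.5 FPKM in the labelled libraries, against 22.8, 24.0 and 23.0 FPKM in SMAD4KO_BRAF (0.55 ± 0.095, limma, adjusted p = 0.0131), and encodes an effector GTPase that RAS reaches through its own exchange factors. Its relative Ralb rose by 0.92 ± 0.18 (adjusted p = 0.0190), Rit1 by 0.78 ± 0.15 (0.0168) and Rheb, the activator of mTORC1, by 0.57 ± 0.14 (0.0432). Rap2a had 3.94 and 4.40 FPKM in the labelled libraries, 5.86 to 8.44 FPKM in SMAD4KO_BRAF and 6.50 to 7.95 FPKM in BRAF, and fell against both (-0.68 ± 0.17, adjusted p = 0.0426, and -0.64 ± 0.17, 0.0437). Against BRAF no other gene of this list passed, while 6.89% of all genes were called higher and 7.21% lower. The median of the list was 0.27 there, against 0.0225 over all genes tested.

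The regulators of RAF moved in both directions. Ksr1, which encodes a scaffold that holds RAF, MEK and ERK together, had 6.10 and 6.16 FPKM in the labelled libraries, 13.9, 9.68 and 13.8 FPKM in SMAD4KO_BRAF and 13.5, 14.9 and 13.0 FPKM in BRAF. The labelled libraries lay below all others, by -1.05 ± 0.16 against BRAF (limma, adjusted p = 0.00758) and -0.90 ± 0.16 against SMAD4KO_BRAF (0.0158). Shoc2, whose product takes part in removing an inhibitory phosphate from RAF, had 33.3 and 31.2 FPKM in the labelled libraries, 16.8 to 20.5 FPKM in SMAD4KO_BRAF and 20.6 to 24.1 FPKM in BRAF, and rose against both (0.74 ± 0.12, adjusted p = 0.0119, and 0.52 ± 0.12, 0.0342). Ywhab, which encodes a phosphoserine-binding partner of RAF, also rose against both (0.69 ± 0.13, adjusted p = 0.0169, and 0.52 ± 0.13, 0.0386), and its relative Ywhah against SMAD4KO_BRAF (0.62 ± 0.11, 0.0166). In all, 3 of 18 rose and 1 fell against SMAD4KO_BRAF, to be read against 6.60% and 5.01% of all genes. Their median was 0.278, against 0.0243 over all genes tested. Against BRAF 2 of the 18 rose and 1 fell, to be read against 6.89% and 7.21% of all genes. The median there was 0.166, against 0.0225 over all genes tested.

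Of 9 tested genes in the list of MEK-ERK scaffolds and partners, Pea15a rose in the labelled libraries, at 12.4 and 15.5 FPKM, against 3.33 to 6.18 FPKM in SMAD4KO_BRAF and 3.32 to 6.44 FPKM in BRAF (1.5 ± 0.30, limma, adjusted p = 0.0209, and 1.46 ± 0.30, 0.0197). Among 11 adaptors and exchange factors, Rasgrf2 fell against BRAF (-0.54 ± 0.14, adjusted p = 0.0437). Rasgrf2 was also lower in every SMAD4KO_BRAF library than in BRAF (-0.33, limma, adjusted p = 0.298). The labelled libraries overlapped with SMAD4KO_BRAF (-0.21, limma, adjusted p = 0.366). Among 12 kinases and factors that ERK phosphorylates, Rps6ka5 fell against BRAF (-0.75 ± 0.16, limma, adjusted p = 0.0239). It was at 0.601 and 0.744 FPKM in the labelled libraries and 1.51 to 2.09 FPKM in BRAF, and the +1 in the scale understates this change. Every SMAD4KO_BRAF library was also below BRAF (-0.33, limma, adjusted p = 0.340), and the labelled libraries were below SMAD4KO_BRAF (-0.42, 0.134). In these lists no other gene passed in any comparison. The calls against BRAF are to be read against 6.89% of all genes called higher and 7.21% lower. Those against SMAD4KO_BRAF are to be read against 6.60% and 5.01%.

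No gene passed among 9 RAS GTPase-activating proteins, which switch RAS off, nor among 12 kinases of other MAPK modules. These modules include those of p38, JNK and ERK5 and the atypical Mapk6. Of all genes, 0.0745% passed in SMAD4KO_BRAF against BRAF. The share was 14.1% between the labelled libraries and BRAF and 11.6% between the labelled libraries and SMAD4KO_BRAF, so lists this short may hold no call. The GTPase-activating genes with the smallest unadjusted p were Dab2ip (-0.28, limma, adjusted p = 0.386) and Rasa3 (0.51, 0.491) in SMAD4KO_BRAF against BRAF. They were Rasa4 (-0.93, limma, adjusted p = 0.171) and Rasal2 (-0.37, 0.267) between the labelled libraries and BRAF, and Rasa4 (-1.33, 0.0728) and Dab2ip (0.51, 0.0814) between the labelled libraries and SMAD4KO_BRAF. Of these kinases, Map2k4 (-0.38, limma, adjusted p = 0.276) and Mapk8 (-0.35, 0.321) came first in SMAD4KO_BRAF against BRAF. Mapk8 (-0.53, limma, adjusted p = 0.0743) and Mapk13 (0.44, 0.129) did so between the labelled libraries and BRAF, and Map2k4 (0.37, 0.129) and Map2k6 (-0.70, 0.166) between the labelled libraries and SMAD4KO_BRAF.

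Transcriptional output of the cascade was read from 17 tested feedback and target genes. Between the labelled libraries and BRAF 2 of them rose, against 6.89% of all genes, and 12 had a positive difference. The median was 0.642, against 0.0225 over all genes tested. Between the labelled libraries and SMAD4KO_BRAF 3 rose, against 6.60% of all genes, and 12 had a positive difference. The median was 0.427, against 0.0243 over all genes tested. Dusp4, which encodes a nuclear ERK phosphatase, had 17.0 and 17.5 FPKM in the labelled libraries, 8.74, 10.4 and 8.55 FPKM in SMAD4KO_BRAF and 9.10 to 11.8 FPKM in BRAF, and rose against both (0.84 ± 0.14, limma, adjusted p = 0.0117, and 0.70 ± 0.14, 0.0185). Ier3, an immediate early gene, rose against both as well (1.28 ± 0.23, 0.0151, and 0.89 ± 0.23, 0.0435), and Spry4, an inhibitor of the pathway, rose against SMAD4KO_BRAF (1.77 ± 0.41, 0.0354). Dusp6, which encodes the cytoplasmic ERK phosphatase and was looked at after its values were seen, did not share this course. Its level was 38.6 and 41.6 FPKM in the labelled libraries, 37.7, 48.5 and 37.6 FPKM in SMAD4KO_BRAF and 83.4, 39.4 and 72.9 FPKM in BRAF. Dusp5, Spry2, Etv4 and Ccnd1 also had lower means in the labelled libraries than in BRAF.

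**Figure D5:**
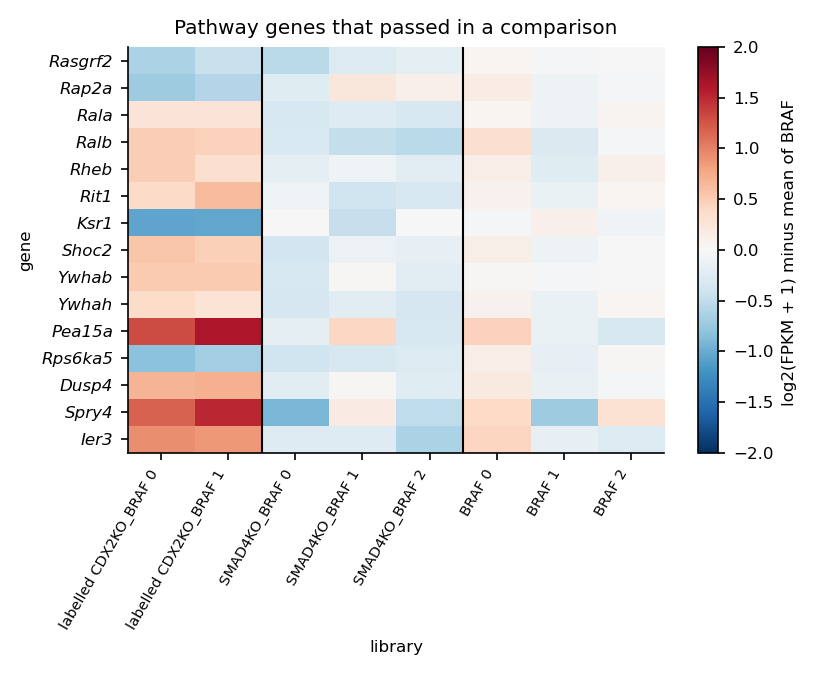
log2(FPKM + 1) minus the mean of BRAF, as colour, for the 15 pathway genes outside the 7 that passed in a comparison (rows) and the 8 libraries (columns). Ksr1, Rap2a and Rps6ka5 are lowest and Pea15a, Spry4 and Ier3 highest in the libraries labelled CDX2KO_BRAF, whose calls all ended when either of them was left out.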

How the data were processed

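The deposited values are FPKM of the whole gene, in 1 table with 8 columns used here. Per the submitters' processing notes, TopHat2 2.1.0, Cuffnorm 2.2.1 and Cuffdiff 2.2.1 and the mouse build mm9 were used, and which program made the table is not given in the sources used here. Per the labels' protocols, TruSeq libraries were read as 50 bp single ends, after the epithelium was released in 3 mM EDTA and passed through a 70 micron filter. Column names matched groups but not single samples, and 3 further columns that match no sample were not used. FPKM from short reads can share reads between close paralogs.

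From the deposited FPKM, log2(FPKM + 1) was computed for genes with at least 1 FPKM in at least 2 libraries, which gave 12084 genes. All groups were fitted in 1 model with limma 3.58.1 (R 4.3.3) with a mean-variance trend. P-values are two-sided, adjusted by the Benjamini-Hochberg method over all genes in each of 3 comparisons, with a threshold of 0.05, and measure the spread between these libraries, which may be technical. Fold changes on this scale are understated at low FPKM. The fit was tested on simulated data. Ratios were compared by exact permutation over libraries (scipy 1.17.1). Pathway genes named are those called, or, in a list with no call, those with the smallest p, and per member the 2 genes with the highest correlation. Results for some other genes of the cascade are not reported here. The members and lists were chosen with earlier results of these data known. The 18 alternatives were another pseudocount (0.1), 2 other filters (none, 5 FPKM), median-ratio and quantile scaling, only the 2 groups compared, library weights, sex as a term, each library left out in turn, and, chosen after seeing the data, a block for the column number and only the libraries of female mice.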

Additional observations from a re-analysis of the deposited data

How the results depend on the processing

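Of the members, Mapk3 and Map2k1 between the libraries labelled CDX2KO_BRAF and SMAD4KO_BRAF kept their direction in all 18 alternatives, Mapk3 at 0.32 to 0.56 and Map2k1 at 0.58 to 0.85. With library weights, 1069 genes and 1 member (Map2k1) passed in SMAD4KO_BRAF against BRAF, against 9 genes and no member in the reported fit, 2602 genes and 1 member (Nras) between the labelled libraries and BRAF (1704 in the reported fit), and 2447 genes and 3 members between the labelled libraries and SMAD4KO_BRAF (1402 genes and 1 member in the reported fit). With sex as a term 78 genes passed in SMAD4KO_BRAF against BRAF and 2 members between the labelled libraries and SMAD4KO_BRAF. Only libraries of female mice gave 16 genes and no filter 5 genes in SMAD4KO_BRAF against BRAF, and a fit of only the 2 groups gave 0 members between the labelled libraries and SMAD4KO_BRAF. Leaving out 1 library gave 5 to 25 genes in SMAD4KO_BRAF against BRAF, 409 to 1833 between the labelled libraries and BRAF, and 234 to 1423 genes and 0 to 2 members between the labelled libraries and SMAD4KO_BRAF. Where 1 labelled library remained, it was assumed to vary as the other groups do. The cause of these shifts was not tested.

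Some values changed sign. In SMAD4KO_BRAF against BRAF these were Nras (0.0012 with median-ratio rescaling, 0.073 with quantile normalization, 0.052 with library weights, 0.12 in female mice, and -0.062 to 0.081 leaving out 1 library), Braf (-0.0035) and Mapk3 (0.018, against -0.23 in the reported fit) with quantile normalization. Araf between the labelled libraries and BRAF ranged from -0.12 to 0.045 leaving out 1 library. Map2k2 between the labelled libraries and SMAD4KO_BRAF was at 0.044 with library weights, 0.088 with sex as a term, 0.13 in female mice, and -0.12 to 0.13 leaving out 1 library. Braf has no value at a minimum of 5 FPKM, which it does not reach. The planned replicate block by title could not be fitted, since the columns carry other numbers. With a replicate block by column number, 10, 1181 and 805 genes and 0 members passed in the 3 comparisons and Map2k2 was at 0.0040. Libraries of the same number did not deviate together in every pair (r from -0.0474 to 0.241 between SMAD4KO_BRAF and BRAF). Absolute depth is unknown, so low values such as those of Rps6ka5 have no counting interval.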
